A study of Mus musculus with 18 samples.

Results

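The response of mouse marrow-derived mesenchymal stem cells (MSC) to CK666, an inhibitor of the Arp2/3 complex, was compared between untransfected cells and cells in which Arp4 had been knocked down. The comparison was a difference of differences in RNA-seq counts, and it drew on 12 of the 18 libraries of the study, 3 in each of 4 groups. The groups were untreated cells (control), cells treated with CK666, cells transfected with 1 siRNA against Arp4 (siArp4), and siArp4 cells that also received CK666 (siArp4+CK666). Expression in untransfected cells was measured at 24 h of treatment. The study gives no duration where it describes the transfected cells. Its discussion names the knockdown figure among those showing chromatin shifts at 24 h. All 4 groups were MSC of a primary line that the laboratory made from the marrow of male C57BL/6J mice. The study describes distinct preparations for each culture condition, so p-values measure the spread between preparations of that line and not between animals. For each gene the log2 fold change of CK666 against control (the untransfected effect) was subtracted from that of siArp4+CK666 against siArp4 (the knockdown effect). This difference could be tested in 13511 of the 54347 genes in the table.

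The difference does not isolate Arp4. The control and CK666 cells were never transfected and come from a separate experiment, so lipid transfection, experiment and loss of Arp4 all change together between the 2 effects and cannot be told apart. Cells given a control siRNA (siControl, 3 libraries) received no CK666 in the libraries analysed here, and they serve below as a reference for starting levels. The siControl and cytochalasin D libraries both entered the scaling and the estimate of spread, and the cytochalasin D comparison is not reported here.

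CK666 holds the Arp2/3 complex in an inactive state and so prevents new actin branches from forming on existing filaments. Arp4, the product of Actl6a, is a nuclear actin-related protein that pairs with monomeric actin inside the BAF, INO80, TIP60 and SRCAP complexes, which remodel or modify chromatin. Several of the pathways described below run through well known transcription factors: ATF4 and CHOP in the integrated stress response, NRF2 in the antioxidant response, SREBP2 in sterol synthesis, E2F in DNA replication, and SRF with its actin-sensing cofactor in contractile genes.

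Total estimated counts ran from 18848954 to 24733212 per library over the 12 libraries, with a median of 20779923, and between 12563 and 13233 genes reached 10 counts in a library. Mitochondrial genes held 1.36% to 1.88% of the counts in control and CK666 libraries and 2.67% to 3.36% in siArp4 and siArp4+CK666 libraries. The knockdown target was read first. Normalized counts (counts divided by the size factor of the library) of Actl6a, on chromosome 3 from 32706298 to 32726973 of GRCm38, were 935, 919.9 and 862 in control, 914, 724 and 876 in CK666, and 717, 1158 and 842 in siControl. The siArp4 libraries held 50.1, 58.6 and 19.5 and those with CK666 added 9.47, 23.2 and 18.4. Every knockdown library was thus far below every other library, and siArp4 differed from siControl by -4.40 on the log2 scale (SE 0.28). Within the knockdown Actl6a was lower still with CK666 (-1.32, SE 0.35, DESeq2 adjusted p = 0.00124), although the libraries of the 2 groups overlapped. That call was lost with edgeR (adjusted p = 0.0177) and with each experiment fitted alone (0.0324). It was also lost without siArp4 replicate 1 or 2 or siArp4+CK666 replicate 1. Mrpl47 runs over part of Actl6a on the opposite strand, and the libraries were unstranded. Of 14 MSC markers, Thy1 was at 0 in every library and 10 had a mean of at least 10 normalized counts in control. Their summed level was 78806 to 82175 in control, 48939 to 55816 in CK666, and 45819 to 50906 in siArp4 against 40158 to 47220 in siArp4+CK666. Summed markers of macrophages and blood cells stayed between 147 and 413 normalized counts in all 5 groups, with Ptprc and Itgam at or near 0. Of 4 tested, 1 fell in untransfected cells and 1 rose after knockdown. Chondrocyte markers summed to 349 to 387 in control and 214 to 248 in CK666, and to 938 to 1027 in siArp4 against 843 to 1005 in siArp4+CK666. Endothelial ones summed to 17.8 to 57.9 and 69.8 to 237, and to 14.7 to 124 against 50.3 to 87.3, in the same order. In bulk RNA, fewer cells of a type and less RNA per cell cannot be told apart.

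CK666 was followed by rises and falls in both settings, with falls the larger group. With a call defined as an absolute log2 value over 1 and a DESeq2 adjusted p below 0.01, 1454 of 15467 genes (9.4%) were called in untransfected cells, 625 higher (4.04%) and 829 lower (5.36%). After knockdown 940 of 14001 (6.71%) were called, 265 higher (1.89%) and 675 lower (4.82%). The difference itself was called for 597 of 13511 genes (4.42%), 257 of them with a higher (1.9%) and 340 with a lower (2.52%) CK666 effect after knockdown. Among the 13511 genes, 103 rose in both settings, which is 17.2% of the rises in untransfected cells and 39.2% of those after knockdown. Another 331 fell in both, which is 40.8% and 49.8% of the falls. The 2 CK666 comparisons share no library. Across the 13511 genes the effects had a Pearson r of 0.362 and a Spearman rho of 0.404, and across the 10246 genes with a mean of at least 100 normalized counts r was 0.495. These are correlations over genes, which are not independent replicates.

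Genes were sorted by the calls of the 3 contrasts. A response was lost where the untransfected effect was called, the knockdown effect was not, and the difference was called against the untransfected effect. This held for 266 genes, 133 that CK666 raised and 133 that it lowered in untransfected cells. A further 23 responses were weakened (called the same way in both settings with a called difference against it), and 15 were reversed (called in opposite directions). There were 392 kept responses (called the same way in both, difference not called), of which 86 were rises and 306 falls. In 163 of these the 95% interval of the difference lay inside a log2 value of 1 on either side of 0, and in the others it reached past that value. Another 19 responses were strengthened and 124 gained, the latter called after knockdown and not in untransfected cells. For 1049 genes an effect was called in only 1 setting while the difference was not called, and these were left as undecided. The remaining 150 called differences belong to genes without a called effect in either setting.

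**Figure D1:**
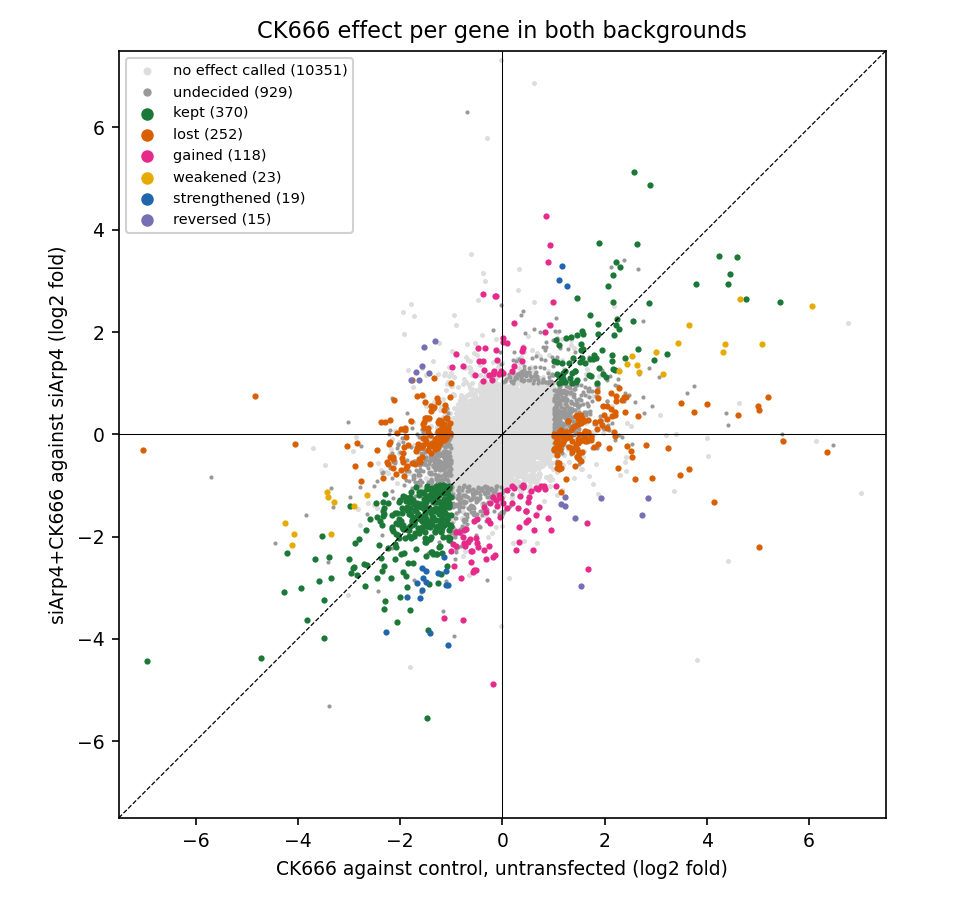
CK666 effect in untransfected cells (x axis, log2 fold change) against the effect after Arp4 knockdown (y axis, log2 fold change) for the 12077 tested genes with a mean of at least 20 normalized counts, coloured by response class. Lost responses lie along the horizontal axis, gained ones along the vertical axis and kept ones near the diagonal, where falls outnumber rises. 11 genes lie outside the axes, which end at 7.5.

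Over the most variable genes the mean distance between replicates was 19.5 in control, 27.1 in CK666, 19.2 in siArp4, 25.7 in siArp4+CK666 and 44.4 in siControl (35.3 to 60.0), against 39.1 between the centres of CK666 and control and 33.7 between those of siArp4+CK666 and siArp4. The centres of siControl and control, both without CK666 and without the Arp4 siRNA, lay 64.1 apart, and those of siArp4 and siControl 49.8. The starting states to which CK666 was added, control and siArp4, lay 79.6 apart, a greater distance than either CK666 response covered. siControl against control gave 3498 called genes of 14491 (24.1%) and siArp4 against siControl 2740 of 15959 (17.2%).

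Counts for functional lists of genes are given below beside the median over all 13511 genes (0.01 for the untransfected effect, 0.00 for the knockdown effect and -0.03 for the difference, all log2). In the stress and amino acid lists 5 of 14 and 5 of 12 rises were lost or weakened, beside 133 lost and 14 weakened of 598 over all genes. Among sterol genes 11 of 16 falls were kept, and among contractile genes 6 of 13, beside 306 of 811 over all genes. DNA replication and mitosis genes (38 and 47 tested) had 26 and 29 falls in untransfected cells and 15 and 40 after knockdown. Over all 13511 genes there were 811 and 665 falls.

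**Figure D2:**
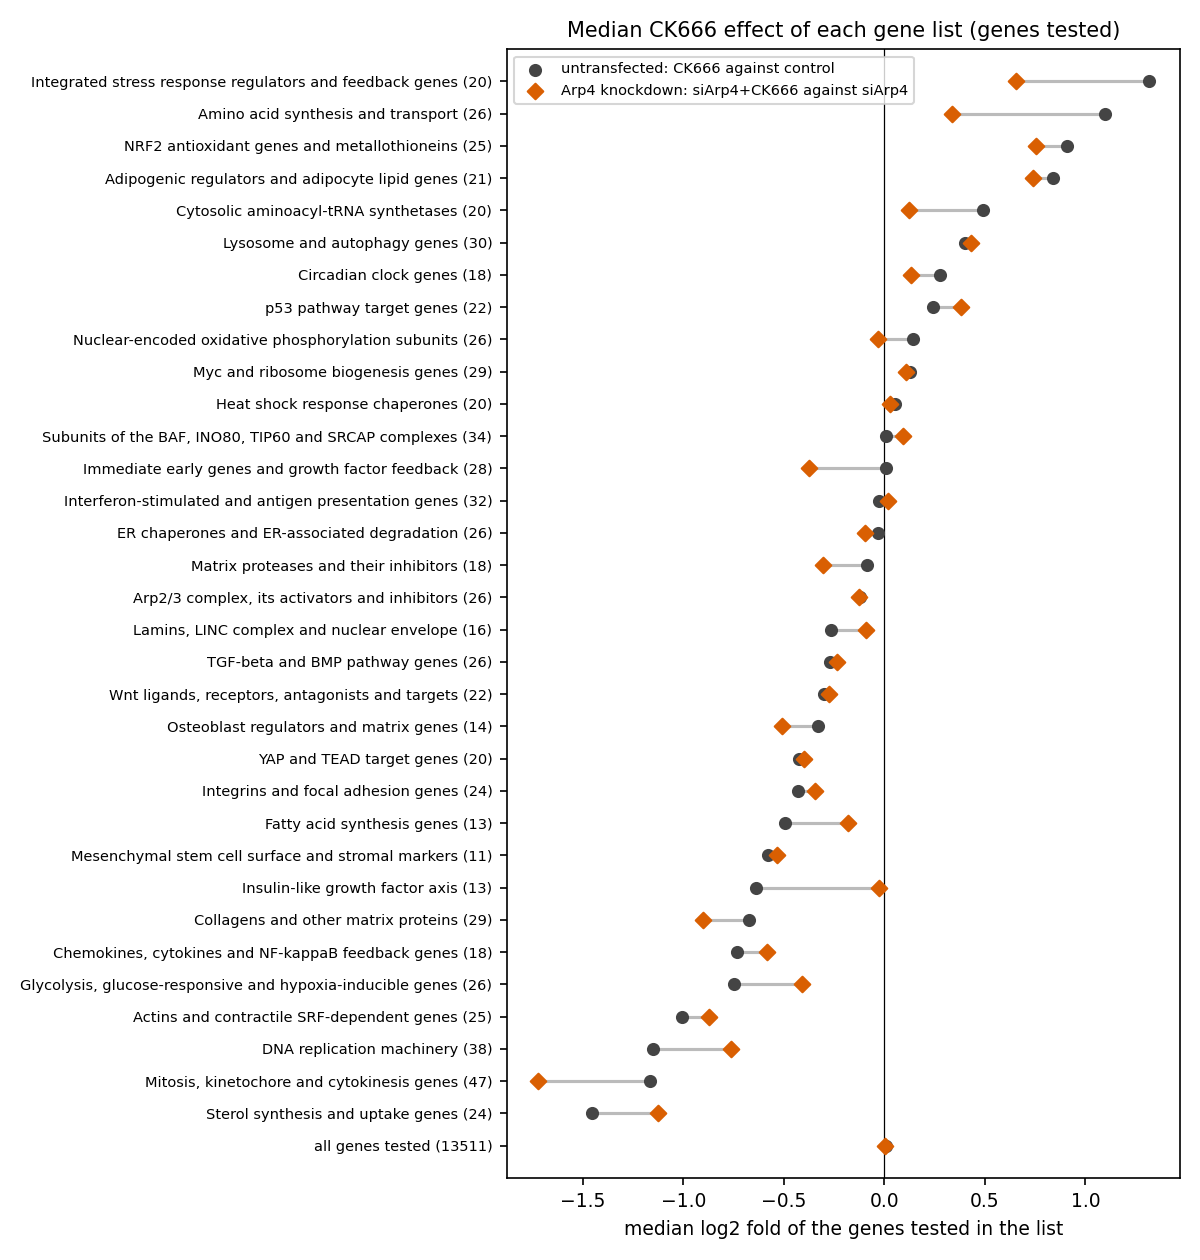
Median log2 CK666 effect of each functional list in untransfected cells and after Arp4 knockdown (x axis, 1 line per list with the number of genes tested), as circles and diamonds joined by a bar. The median of the integrated stress response list falls from 1.32 to 0.65 and that of the mitosis list from -1.16 to -1.73, while that of the sterol list is -1.46 and -1.13.

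Among regulators and feedback genes of the integrated stress response, 14 of 20 tested members rose with CK666 in untransfected cells and none fell, with a median log2 effect of 1.32. After knockdown 6 rose and 1 fell, with a median of 0.65. The difference was called lower for 6 members and higher for 1, with a median of -0.75. The members ran from a kept rise to a reversal. Several genes described next carry, in the bases before their start, a short element known to be bound by ATF4 and its C/EBP partners (TGATGNAA, searched on both strands). It is shown in capitals for 4 of them, and Chac1, Pycr1 and Asns hold it too. The stretches are the 250 bases upstream of the RefSeq start in GRCm38.p6, 5′ to 3′ on the strand of the gene, which for all 4 is the minus strand: chr1:191183334-191183583 for Atf3, chr3:50443614-50443863 for Slc7a11, chr19:43524606-43524855 for Got1 and chr7:126625471-126625720 for Nupr1. They are shown because the same element stands in genes whose responses were kept, lost and reversed.
Atf3: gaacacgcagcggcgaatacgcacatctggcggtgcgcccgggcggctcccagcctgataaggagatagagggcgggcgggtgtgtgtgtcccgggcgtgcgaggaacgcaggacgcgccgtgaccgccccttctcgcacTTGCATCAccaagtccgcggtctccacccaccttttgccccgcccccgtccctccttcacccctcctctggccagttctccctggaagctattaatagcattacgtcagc
Slc7a11: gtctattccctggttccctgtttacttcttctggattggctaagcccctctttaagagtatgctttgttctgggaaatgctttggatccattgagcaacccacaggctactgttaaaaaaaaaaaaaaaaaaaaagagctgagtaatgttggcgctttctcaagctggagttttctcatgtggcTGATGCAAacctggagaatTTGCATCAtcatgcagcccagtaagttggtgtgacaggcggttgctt
Got1: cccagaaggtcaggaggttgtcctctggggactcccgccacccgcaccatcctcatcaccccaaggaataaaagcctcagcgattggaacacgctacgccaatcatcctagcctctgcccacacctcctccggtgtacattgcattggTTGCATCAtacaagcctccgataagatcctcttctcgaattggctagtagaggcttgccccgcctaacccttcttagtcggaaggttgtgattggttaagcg
Nupr1: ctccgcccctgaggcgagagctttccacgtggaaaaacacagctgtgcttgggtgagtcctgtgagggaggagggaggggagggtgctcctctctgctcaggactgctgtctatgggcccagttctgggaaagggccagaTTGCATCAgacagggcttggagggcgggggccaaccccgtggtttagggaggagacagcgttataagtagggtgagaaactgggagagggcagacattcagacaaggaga
The last match begins 110 bases before the start in Atf3 and Nupr1, 102 in Got1 and 47 in Slc7a11, which holds 2 matches. A match was found for 1056 of 27025 genes with a promoter in the table (3.91%), for 5 of 20 members of the stress response list (25%) and for 4 of 21 members of the amino acid list (19%). A match describes letters and not binding.

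Atf3, a stress-induced transcription factor, kept its rise. Its normalized counts were 64.7, 55.1 and 53.5 in control and 1157, 1071 and 1046 in CK666, and 57.9, 60.8 and 56.5 in siArp4 against 603, 654 and 709 in siArp4+CK666. The groups with and without CK666 did not overlap in either setting. The effect was 4.24 in untransfected cells and 3.49 after knockdown, and the difference of -0.75 (SE 0.32, 95% interval -1.38 to -0.12) was not called (DESeq2 adjusted p = 0.112).

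Ddit3, which encodes the pro-apoptotic factor CHOP, rose from 561, 604 and 560.0 to 15498, 8502 and 10137 normalized counts in untransfected cells. After knockdown it rose from 513, 569 and 413 to 1198, 1474 and 1886. The starting levels were alike and the level reached under CK666 was not. The difference of -2.70 (SE 0.45, adjusted p = 1.45e-07) is a weakened response, although Ddit3 overlaps Mars on the opposite strand (mean 2274 normalized counts) and unstranded reads of the pair cannot be told apart. Trib3, a pseudokinase that CHOP and ATF4 induce and that feeds back on them, had an effect of 4.64 in untransfected cells and 2.65 after knockdown (difference -1.99, SE 0.37, adjusted p = 2.93e-06). Chac1, a glutathione-degrading enzyme of the same branch, went from 3.00 to 1.60 (difference -1.39, SE 0.28, adjusted p = 1.95e-05).

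Responses that were no longer called after knockdown included the phosphatase subunit that ends the stress response. Ppp1r15a (GADD34), which directs removal of the phosphate from eIF2α, rose from 305, 341 and 288 to 6105, 3016 and 3367 in untransfected cells. In knockdown cells it was 518, 634 and 272 without and 352, 559 and 1008 with CK666, and those groups overlapped. The difference was -3.31 (SE 0.73, adjusted p = 1.39e-04) in DESeq2, and in edgeR it missed the threshold (-3.32, adjusted p = 0.0126). Ddit4 (REDD1), an inhibitor of mTORC1, had 883, 958 and 958 normalized counts in control and 3270, 2320 and 2582 in CK666. It stood at 12149, 11956 and 11614 in siArp4 against 12576, 13893 and 15436 in siArp4+CK666. Its knockdown libraries all lay above every CK666 library before CK666 was added, and siControl was high as well (8142, 6766 and 10014).

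Nupr1 changed direction. This small chromatin-associated stress protein rose from 482, 532 and 497 to 2619, 1444 and 1700.0 normalized counts in untransfected cells and fell from 5541, 5695 and 4966 to 1886, 2361 and 2598 in knockdown cells. The effects were 1.93 and -1.24, and the difference was -3.17 (SE 0.30, adjusted p = 8.69e-23). The levels under CK666 overlapped between the settings, and it was the level without CK666 that differed. Atf5, another stress-induced bZIP factor, moved the other way: its effect was 0.93 in untransfected cells, under the fold minimum, and 2.14 after knockdown (difference 1.22, SE 0.24, adjusted p = 1.59e-05). Atf4 itself, which is controlled mainly at translation, had effects of 1.42 and 0.60, and the difference of -0.82 was not called (adjusted p = 0.0404).

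**Figure D3:**
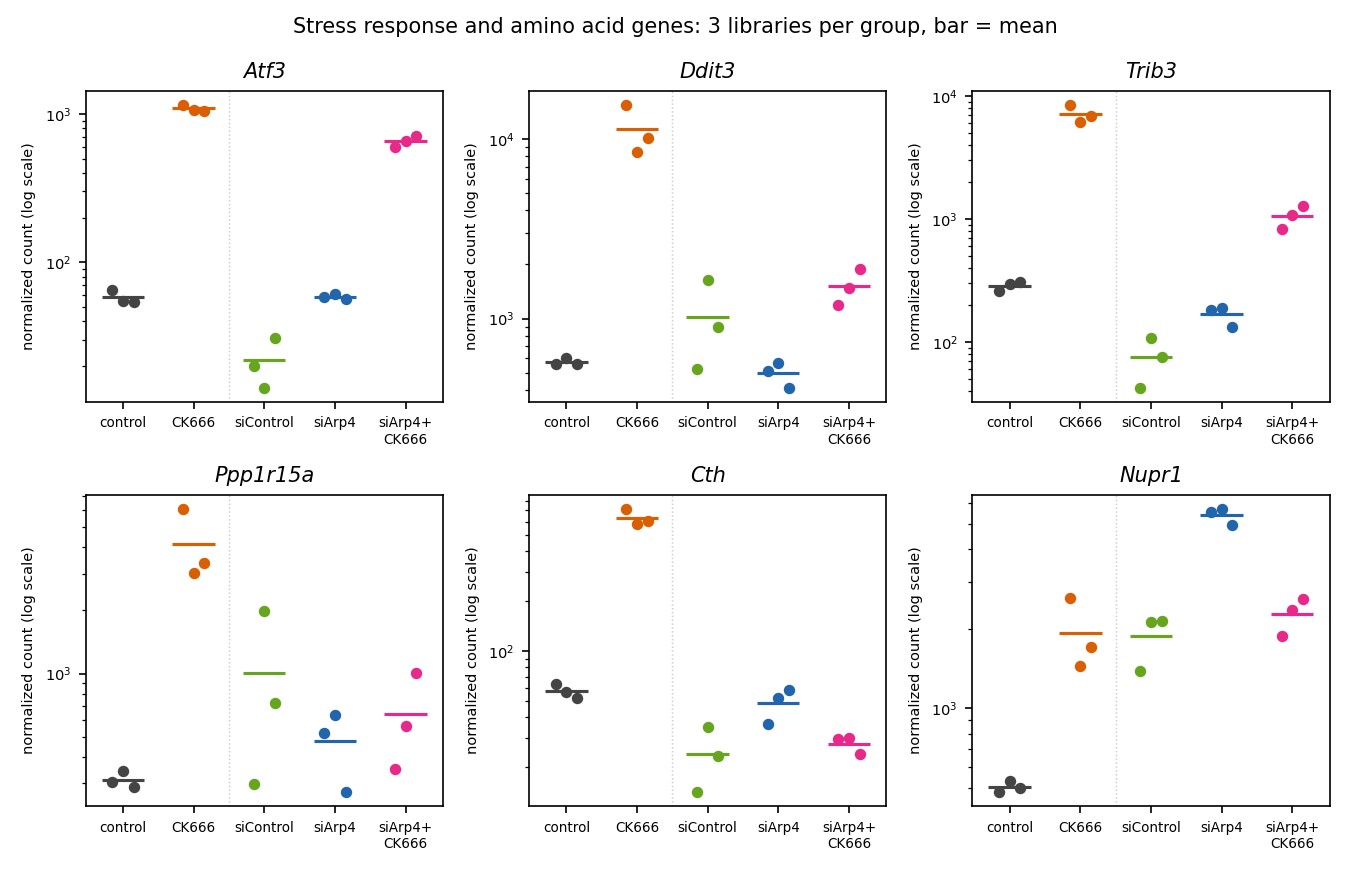
Normalized counts per library (log axis) of Atf3, Ddit3, Trib3, Ppp1r15a, Cth and Nupr1 in control, CK666, siControl, siArp4 and siArp4+CK666, with 1 point per library and bars at the group means. Atf3 rises in both settings, Cth rises in untransfected cells from at most 62.9 to at least 580.2 and not in knockdown cells, and Nupr1 falls from at least 4966 to at most 2598 after knockdown.

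Genes of serine, one-carbon, asparagine and cysteine synthesis and of amino acid transport followed the same order. Of 26 tested, 12 rose and none fell in untransfected cells (median 1.10), and 5 rose after knockdown (median 0.34). The difference was called lower for 6 and higher for none, with a median of -0.57. Cth, the enzyme that makes cysteine from cystathionine, was at 62.9, 57.0 and 52.5 normalized counts in control and at 715, 580.2 and 609 in CK666, but at 36.3, 52.0 and 58.5 in siArp4 against 29.5, 29.97 and 23.8 in siArp4+CK666. The untransfected groups were far apart and the knockdown groups close, with the CK666 libraries the lower ones. The effects were 3.47 and -0.81 and the difference was -4.27 (SE 0.37, adjusted p = 3.95e-28).

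Slc7a11, the cystine transporter that supplies cysteine from outside the cell, was by contrast kept, with 97.6, 98.7 and 90.8 in control, 894, 1701 and 1381 in CK666, and 36.3, 27.7 and 44.2 in siArp4 against 302, 309 and 223 in siArp4+CK666. Its effects were 3.79 and 2.95 and the difference was -0.85 (SE 0.40, interval -1.63 to -0.06, adjusted p = 0.163). Got1, the cytosolic aspartate aminotransferase, had an effect of 1.59 in untransfected cells and -0.02 after knockdown (difference -1.61, SE 0.27, adjusted p = 8.14e-08). The neutral amino acid transporter Slc1a4 went from 2.04 to 0.12 (difference -1.92, SE 0.14, adjusted p = 9.62e-41). For Got1 the siArp4 libraries (1385, 1382 and 1303) lay at the control level (1471, 1415 and 1328), whereas for Slc1a4 they lay between control and CK666 (1181, 1147 and 1137 against means of 597 and 2464).

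The proline-synthesis gene Pycr1 had effects of 0.90 and -0.28, neither past the fold minimum, and a called difference of -1.18 (SE 0.22, adjusted p = 2.33e-06). Gpt2, a mitochondrial alanine aminotransferase, and Slc3a2, the partner chain of Slc7a11, were weakened, by -1.06 (SE 0.22) and -1.27 (SE 0.33). The call for Gpt2 was lost without siArp4 replicate 1 or 3 or siArp4+CK666 replicate 3 (between -0.996 and -0.983 in those fits, under the fold minimum), and that for Slc3a2 without CK666 replicate 1 (-1.05, adjusted p = 0.0193) and without 4 other libraries. Asns, asparagine synthetase, had effects of 1.25 and 0.95 with no called difference (-0.31, adjusted p = 0.365). Of 20 cytosolic tRNA synthetases, 2 rose in untransfected cells and none was called after knockdown by DESeq2 or edgeR (11 had an unadjusted p below 0.05), and the difference was called for 1. That gene, Wars, went from 1.2003 to 0.03 (difference -1.17, SE 0.12, adjusted p = 4.92e-20), and Wdr25 overlaps it on the other strand.

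Of 26 chaperones and degradation genes of the endoplasmic reticulum (ER), 4 rose in untransfected cells and 1 after knockdown, and none fell. Over all 13511 genes 598 and 263 rose. The median effects of the list were -0.03 and -0.10. The called difference was that of Hspa5, the ER chaperone BiP, which was at 22852, 20616 and 20421 normalized counts in control, 64044, 49469 and 51089 in CK666, and 12458, 12538 and 13581 in siArp4 against 10611, 11059 and 10534 in siArp4+CK666. It rose in all 3 untransfected CK666 libraries and did not rise in the knockdown ones. The effects were 1.37 and -0.26 and the difference was -1.63 (SE 0.14, adjusted p = 1.13e-28). Hspa5 carries an ER stress response element (CCAAT, any 9 bases, then CCACG, searched on both strands, in capitals) that begins 65 bases before its start, in chr2:34771840-34772089 on the plus strand. It is shown because the other ER genes with the element had no called effect in either setting.
Hspa5: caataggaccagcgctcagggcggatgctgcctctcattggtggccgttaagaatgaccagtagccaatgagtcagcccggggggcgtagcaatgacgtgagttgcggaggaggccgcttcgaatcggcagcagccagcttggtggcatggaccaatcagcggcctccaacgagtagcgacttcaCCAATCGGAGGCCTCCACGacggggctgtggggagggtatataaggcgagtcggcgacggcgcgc
The element was present in 35 of 27025 promoters (0.13%) and in 9 of 22 ER genes with a promoter in the table (40.9%). Hsp90b1, another ER chaperone of this list, had effects of -0.08 and -0.49. Heat shock chaperones of the cytosol did not rise: of 20 tested, 2 fell in untransfected cells and 3 after knockdown, and no difference was called by DESeq2 (3 had an unadjusted p below 0.05) or by edgeR.

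Part of the antioxidant genes controlled by NRF2 rose in each setting. Of 25 tested with the metallothioneins, 9 rose in untransfected cells (median 0.91) and 11 after knockdown (median 0.76), and none fell. Differences were called for 4, 1 higher and 3 lower, with a median of -0.23. Gclm, the regulatory subunit of the enzyme that starts glutathione synthesis, had 2899, 2484 and 2993 normalized counts in control, 13552, 12880 and 12765 in CK666, and 924, 1008 and 978 in siArp4 against 3894, 4367 and 4490.0 in siArp4+CK666. The level was lower in knockdown cells and the rise was of similar size, 2.23 and 2.13 (difference -0.09, interval -0.41 to 0.22). Srxn1, which repairs oxidised peroxiredoxins, had effects of 1.79 and 1.56 (difference -0.23, interval -0.41 to -0.06, adjusted p = 0.0692).

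Nqo1, a quinone reductase of the same pathway, behaved otherwise. It rose from 661, 656 and 682 to 1786, 1788 and 1765 in untransfected cells and fell from 3725, 3615 and 3753 to 2332, 2412 and 2435 in knockdown cells. The fall of 0.63 on the log2 scale did not reach the fold minimum, and the difference was -2.05 (SE 0.09, adjusted p = 6.41e-116). Both knockdown groups were above the CK666 group. Hmox1, haem oxygenase, was weakened from 2.28 to 1.23 (difference -1.04, SE 0.25, adjusted p = 6.65e-04), a call that was lost without CK666 replicate 1 (-0.90) or siArp4+CK666 replicate 1 (-0.97).

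DNA replication genes had more falls in untransfected cells than after knockdown. Of 38 tested, 26 fell and none rose in untransfected cells (median -1.15), and 15 fell and 1 rose after knockdown (median -0.76). The difference was called higher for 5 and lower for none, its median was 0.39 and it was positive in 30 of 38. Among these members 14 falls were kept, 4 lost and 1 weakened. Without CK666 the median log2 value of this list was -0.86 in siControl against control and -0.67 in siArp4 against siControl.

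Cyclin E genes, which drive entry into S phase, lost part or all of their fall. Ccne1 had 836, 923 and 892 normalized counts in control, 329, 310.3 and 323 in CK666, and 964, 858 and 793 in siArp4 against 828, 929 and 1082 in siArp4+CK666, so that only the untransfected groups were apart. Its difference was 1.58 (SE 0.29, adjusted p = 3.07e-06). Ccne2 was weakened from -2.91 to -1.40 (difference 1.503, SE 0.30, adjusted p = 1.60e-05), and its span overlaps Ints8. Mcm4, a subunit of the replicative helicase, went from -1.89 to -0.66, which is lost by the fold minimum, although its knockdown effect itself had an adjusted p of 1.98e-10. Chaf1b, a subunit of the histone chaperone that assembles chromatin behind the fork, went from -1.27 to -0.07. In Chaf1b the siArp4 libraries (201, 174 and 149) were already below the CK666 libraries (641, 472 and 540.0).

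Other members kept their falls. Cdc6, which loads the helicase at origins, went from 492, 452 and 538 to 93.4, 92.6 and 83.4 in untransfected cells and from 61.3, 126 and 45.2 to 10.5, 9.67 and 13.002 in knockdown cells. The falls were 2.46 and 2.81 on the log2 scale, with a difference of -0.35 (interval -1.36 to 0.67). Clspn, a checkpoint adaptor at the fork, had effects of -2.08 and -1.73 (difference 0.35, interval -0.55 to 1.25). Both intervals reached past 1 in 1 direction.

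Genes of mitosis, the kinetochore and cytokinesis had falls in most members in both settings, and more after knockdown. Of 47 tested, 29 fell in untransfected cells (median -1.16) and 40 after knockdown (median -1.73), and none rose. The difference was called lower for 9 and higher for none, its median was -0.65 and it was negative in 41 of 47. By class 24 falls were kept, 4 strengthened and 5 gained. The starting levels of this list also differed: its median log2 value was -1.18 in siControl against control and -1.62 in siArp4 against siControl.

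Nusap1, a spindle protein that bundles microtubules, was at 1573, 1637 and 1611 normalized counts in control, 807, 735 and 702 in CK666, and 237, 215 and 229 in siArp4 against 35.8, 29.97 and 22.8 in siArp4+CK666. All 4 groups were separate. The effect went from -1.10 to -2.94 (difference -1.84, SE 0.21, adjusted p = 1.70e-16), and Oip5 overlaps the gene on the other strand. Ccna2, cyclin A, fell from 5044, 4984 and 4826 to 1813, 1759 and 1710 in untransfected cells and from 499, 458 and 531 to 76.8, 81.2 and 75.8 in knockdown cells (difference -1.18, SE 0.15, adjusted p = 2.67e-13).

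Ndc80, the microtubule-binding kinetochore subunit, had effects of -0.91 and -2.18 (difference -1.27, SE 0.27, adjusted p = 9.95e-05), and it counts as gained because its untransfected fall was just under the fold minimum. Without CK666 replicate 1 that fall was called (-1.11). Ube2c, the ubiquitin carrier of the anaphase-promoting complex, went from -0.60 to -2.28 (difference -1.68, SE 0.37, adjusted p = 1.76e-04). The proliferation marker Mki67 and the spindle motor Kif11 were kept, with differences of -0.40 (interval -1.15 to 0.34) and -0.76 (interval -1.37 to -0.15). Kif11 passed the threshold without siArp4+CK666 replicate 1 (-1.09, adjusted p = 0.00828).

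**Figure D4:**
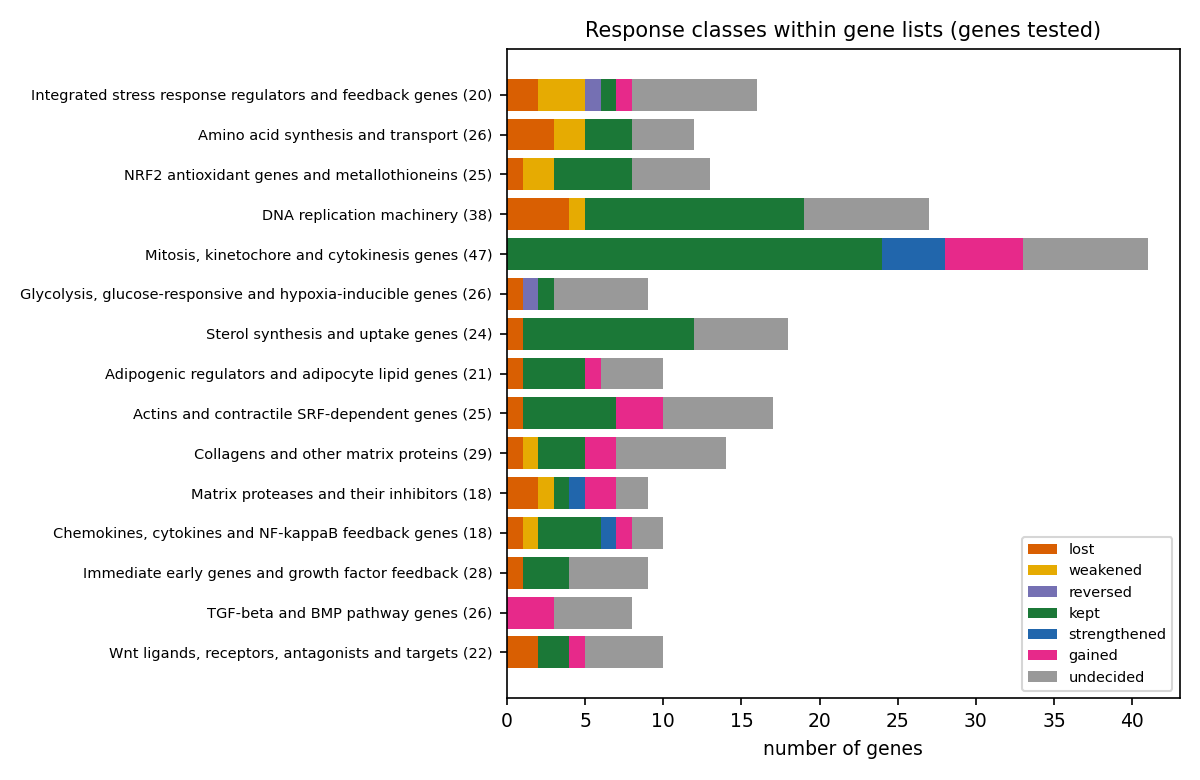
Number of genes in each response class (x axis, stacked bars) for 15 functional lists, with the number of genes tested beside each name. The replication list holds 4 lost and 1 weakened fall and no strengthened one, and the mitosis list 4 strengthened and 5 gained falls and no lost one.

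Sterol synthesis and uptake genes had falls and no rises in both settings. Of 24 tested, 16 fell in untransfected cells (median -1.46) and 13 after knockdown (median -1.13), with none higher, and 11 falls were kept. Of the differences 1 was called, and their median was 0.20. Idi1, an isomerase of the mevalonate pathway, fell by 2.81 and by 2.05. Its difference of 0.76 (SE 0.18) had an adjusted p of 5.01e-04 and stayed under the fold minimum.

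The called difference in this list was that of Insig1, the sterol-sensing retention protein that holds SREBP in the ER. It fell from 3393, 3436 and 3309 to 1511, 1670 and 1677 in untransfected cells, and stood at 2177, 2086 and 2269 in siArp4 against 2208, 2474 and 2031 in siArp4+CK666. The knockdown groups overlapped, and the difference was 1.10 (SE 0.22, adjusted p = 1.33e-05). Fatty acid synthesis genes had few calls (2 of 13 lower in untransfected cells and 1 higher after knockdown), and the difference was positive in all 13 with a median of 0.38. Elovl6, a fatty acid elongase, was the called one, with effects of -1.45 and 0.04 (difference 1.49, SE 0.25, adjusted p = 1.41e-07).

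Adipogenic regulators and adipocyte lipid genes rose in part of the list in both settings. Of 21 tested, 7 rose in untransfected cells (median 0.84) and 6 rose while 1 fell after knockdown (median 0.74), and 4 rises were kept. Summed over 6 adipocyte markers, normalized counts were 944 to 968 in control, 1872 to 2650 in CK666, and 1262 to 1395 in siArp4 against 3722 to 4478 in siArp4+CK666, so that the groups with CK666 were the higher ones in each setting. The siControl sum, without CK666, was 2246 to 3137 and overlapped that of untransfected CK666 cells. In siArp4 only 3 of the 6 markers had a mean of at least 10. Lpl, the lipase that releases fatty acids from lipoproteins, rose from 16694, 16008 and 15870 to 28034, 30059 and 28626 in untransfected cells, which is under the fold minimum at 0.84. In knockdown cells it rose from 13471, 14718 and 14973 to 56045, 59714 and 57994 (2.01). The difference was 1.17 (SE 0.13, adjusted p = 4.98e-18). siControl libraries lay at 61840, 77382 and 62265, above all the others.

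Cd36, a fatty acid transporter, kept its rise. It went from 17.8, 30.4 and 11.1 to 119.9, 158 and 164, and after knockdown from 2.59, 2.21 and 7.19 to 145, 108 and 94.3. The effects were 2.89 and 4.87 and the difference of 1.98 (SE 0.63) had an adjusted p of 0.0183. It passed the threshold without control replicate 3 (2.26, adjusted p = 0.00659). Adhfe1, an alcohol dehydrogenase of mitochondria, was lost. It rose from 13.1, 11.4 and 9.08 to 110.4, 99.5 and 110.3 in untransfected cells, and was at 104, 118 and 137 in siArp4 against 85.2, 97.6 and 115 in siArp4+CK666 (difference -3.51, SE 0.35, adjusted p = 2.86e-21). Its siControl libraries (114, 93.1 and 109) stood at the same level.

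Actins and contractile genes that depend on SRF had falls and no rises in both settings. Of 25 tested, 13 fell in untransfected cells (median -1.01) and 10 after knockdown (median -0.87), with none higher. By class 6 falls were kept, 3 gained and 1 lost. Tagln (SM22), a calponin-family protein of smooth muscle and myofibroblasts, was at 3281, 3100 and 3037 in control, 3976, 2027 and 2529 in CK666, and 1205, 1175 and 1206 in siArp4 against 186, 189 and 327 in siArp4+CK666. The untransfected groups overlapped and the knockdown groups did not. The effects were -0.14 and -2.35 (difference -2.21, SE 0.41, adjusted p = 2.64e-06), with Pcsk7 on the opposite strand. Actg2, smooth muscle gamma actin, went from -0.97 to -2.14 (difference -1.17, SE 0.24, adjusted p = 5.03e-05).

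Acta2, smooth muscle alpha actin, went from -0.90 to -1.91. Its difference of -1.01 (SE 0.24, adjusted p = 5.57e-04) was just past the fold minimum and was under it without 5 of the 12 libraries in turn, for example at -0.86 without CK666 replicate 1, and at -0.998 with the replicate number as a block within each experiment. Ccn2, the matricellular growth factor CTGF and a target of YAP and SRF, showed a large kept fall. It went from 31137, 29542 and 31901 to 2378, 1961 and 2192 in untransfected cells and from 17427, 17258 and 17520 to 1283, 1448 and 1485 in knockdown cells. The effects of -3.83 and -3.63 differed by 0.20 (interval -0.07 to 0.46). Its relative Ccn1 fell by 1.28 and 1.497 on the log2 scale (difference -0.22, interval -0.55 to 0.11). Of 20 YAP and TEAD targets tested, 5 fell in untransfected cells, and 2 fell and 1 rose after knockdown.

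Keratins and other intermediate filament genes fell in both settings (5 of 7 tested in each, with medians of -1.51 and -2.07). They were not the same 5, as Synm lost its fall (effects -1.51 and 0.33) and Vim gained one (-0.37 and -1.43). Krt80 went from 222, 238 and 213 to 14.2, 25.6 and 20.6 and from 93.3, 98.5 and 118 to 7.37, 10.6 and 1.08 (difference -0.50, interval -1.43 to 0.42). Genes of the Arp2/3 complex with its activators and inhibitors had 1 fall in each setting among 26 tested and no called difference by DESeq2 (4 had an unadjusted p below 0.05) or edgeR. Subunits of the complexes in which Arp4 sits had no call in untransfected cells among 34 tested (7 at an unadjusted p below 0.05). After knockdown 1 fell, and no difference was called (8 at that p). edgeR called neither an untransfected effect nor a difference among them. Actl6a, itself a subunit of these complexes, was called lower with CK666 in knockdown cells, as given above.

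Among collagens and other matrix proteins, 6 of 29 tested fell in untransfected cells (median -0.67) and 12 after knockdown (median -0.90), and none rose. The test of the difference called 2 higher and 3 lower. Without CK666 the list had a median log2 value of -0.53 in siControl against control and 0.82 in siArp4 against siControl. Col1a1, the main fibrillar collagen chain, kept its fall, from 56488, 60064 and 58882 to 19086, 20972 and 22320 and from 84726, 84000 and 91537 to 36023, 35697 and 32312 (difference 0.17, interval -0.29 to 0.62). Col3a1 was kept too, with effects of -2.09 and -2.44 from very different starting levels, a mean of 5308 in control and 64368 in siArp4. Thbs1, thrombospondin 1, which activates latent TGF-beta, was weakened. It fell from 104366, 115236 and 114686 to 7741, 12267 and 11585 in untransfected cells and from 22022, 23185 and 28778 to 11912, 10388 and 9365 in knockdown cells. The levels under CK666 overlapped, and the difference was 2.18 (SE 0.27, adjusted p = 1.21e-13).

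Falls seen after knockdown and not before included Dcn, Fbln5 and Timp3. Dcn, the collagen-binding proteoglycan decorin, was nearly silent in untransfected cells (0.938, 4.75 and 1.01 in control, 9.44, 6.90 and 5.38 in CK666), stood at 380.1, 441 and 454 in siArp4 and fell to 81.0, 63.8 and 59.6 with CK666. Its knockdown effect of -2.64 was called, and the difference of -4.32 (SE 0.70, adjusted p = 4.31e-08) rests on an untransfected effect at counts near the floor. Fbln5, an elastic fibre protein, had effects of 0.65 and -1.58 (difference -2.23, SE 0.20, adjusted p = 1.48e-26). Timp3, an inhibitor of metalloproteinases bound to the matrix, went from 0.33 to -2.11 (difference -2.44, SE 0.26, adjusted p = 3.24e-18). Its siControl mean was 59.7, against 1246 in control and 1290 in siArp4.

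Among 18 matrix proteases and inhibitors the difference was called lower for 6 and higher for none. Mmp11, stromelysin 3, was weakened. It rose from 830.3, 1077 and 985 to 10857, 10084 and 10210 in untransfected cells and from 10206, 10918 and 9703 to 33259, 37646 and 35764 in knockdown cells, which thus began where the untransfected response ended (difference -1.64, SE 0.23, adjusted p = 4.46e-11). The collagenase Mmp13 went from 2.22 to 0.74 (difference -1.48, SE 0.26, adjusted p = 8.16e-07), and its siArp4 libraries (416, 436 and 469) were above its CK666 libraries (113, 147 and 136). Ctsk, the collagen-degrading cathepsin K, did not share that starting point, with 911, 962 and 876 in siArp4 against 928, 865 and 885 in control. It rose to 3074, 2138 and 2402 in CK666 and was 829, 938 and 1010 in siArp4+CK666 (difference -1.49, SE 0.20, adjusted p = 4.62e-12).

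The plasminogen activators differed from each other. Plat fell by 1.84 and 1.83 on the log2 scale (difference 0.02, interval -0.30 to 0.34), from 859, 820.2 and 723 to 216, 229 and 225 and from 2651, 2811 and 2727 to 825, 768 and 713. Plau was strengthened, falling from 156, 175 and 149 to 57.6, 42.4 and 56.5 and from 505, 473 and 527 to 37.9, 80.2 and 44.4. The difference was -1.59 (SE 0.31, adjusted p = 9.18e-06). In Plau the level reached under CK666 overlapped between the settings and the starting level did not.

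Chemokines, cytokines and NF-kappaB feedback genes had more falls than rises with CK666. Of 18 tested, 6 fell and 2 rose in untransfected cells (median -0.73), and 8 fell after knockdown (median -0.58). Ccl2, a monocyte chemoattractant, was kept, going from 318, 276 and 329 to 23.6, 15.8 and 20.6 and from 148, 150.4 and 116 to 13.7, 17.4 and 20.6. Its difference was 0.94 (SE 0.40, interval 0.16 to 1.72, adjusted p = 0.107). Il1rn, the IL-1 receptor antagonist, was kept as well, with effects of -3.58 and -2.88, but its difference of 0.70 rose to 1.09 and was called without CK666 replicate 3 (adjusted p = 3.79e-04).

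Ccl9, another chemokine, was strengthened, from 1601, 1590.1 and 1404 to 589.9, 755 and 376 and from 2342, 1697 and 2134 to 97.9, 204 and 117 (difference -2.46, SE 0.38, adjusted p = 7.36e-09). Il1r1, the signalling IL-1 receptor, gained a fall (effects -0.57 and -2.69, difference -2.12, SE 0.40, adjusted p = 3.93e-06). Il1rl1, the IL-33 receptor, had its fall weakened from -4.10 to -2.16 (difference 1.94, SE 0.48, adjusted p = 9.80e-04), which edgeR did not call (adjusted p = 0.0175).

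Ly6a (Sca-1), a surface marker of mouse MSC, was strengthened. It fell from 474, 432 and 389 to 227, 208 and 181 normalized counts in untransfected cells, and from 2916, 2935 and 2483 to 141, 147 and 192 in knockdown cells. The effects were -1.07 and -4.12 and the difference was -3.05 (SE 0.27, adjusted p = 5.65e-26). The untransfected fall was under the fold minimum without control replicate 1 (-0.9996) or CK666 replicate 3 (-0.98). Cxcl12, the stromal chemokine that retains blood stem cells in marrow, had effects of -0.76 and 0.59, neither past the fold minimum, and a called difference of 1.36 (SE 0.13, adjusted p = 1.40e-22). Of the 11 markers tested, 1 fell in untransfected cells and 2 after knockdown, and the difference was called higher for 2 and lower for 1.

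Wnt genes lost some of their falls. Of 22 tested, 6 fell and 1 rose in untransfected cells and 5 fell after knockdown. Lgr5, the R-spondin receptor that marks stem cells of several epithelia, was at 348, 432 and 429 in control, 16.05, 30.5 and 26.02 in CK666, and 90.7, 129 and 115 in siArp4 against 181, 54.1 and 58.5 in siArp4+CK666, where 1 library stood above and 2 below the siArp4 range. The difference was 3.87 (SE 0.65, adjusted p = 1.84e-07). Sfrp2, a secreted Wnt antagonist, fell from 551, 489 and 567 to 100.05, 95.5 and 99.6 and was at 603, 597 and 525 against 417, 406 and 566 in knockdown cells (difference 2.13, SE 0.21, adjusted p = 1.87e-22). Lgr6, a relative of Lgr5, moved the opposite way, with effects of -0.31 and -2.43 (difference -2.12, SE 0.38, adjusted p = 1.42e-06).

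TGF-beta and BMP pathway genes had 3 gained responses among 26 tested. The activin subunits went apart: Inhba had effects of -0.61 and -2.49 (difference -1.89, SE 0.39, adjusted p = 4.40e-05) and Inhbb of 0.41 and 1.68 (difference 1.27, SE 0.14, adjusted p = 1.22e-16). Id2, an inhibitor of bHLH factors and a BMP target, went from -0.18 to 1.17 (difference 1.35, SE 0.22, adjusted p = 1.12e-07).

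The largest differences among well measured genes of each class lay partly outside these lists. Lpar4, a receptor for lysophosphatidic acid, lost its rise. It was at 58.2, 83.5 and 79.7 in control, 837, 1083 and 863 in CK666, and 143, 222 and 184 in siArp4 against 140.0, 136 and 66.1 in siArp4+CK666 (difference -4.33, SE 0.42, adjusted p = 1.41e-22). Gadd45a, a growth arrest gene of the DNA damage and stress responses, rose from 307, 272 and 275 to 5916, 3496 and 4216 in untransfected cells. In knockdown cells it went from 8240, 8407 and 7552 to 10116, 12682 and 13706 (difference -3.40, SE 0.27, adjusted p = 2.71e-33). All siArp4 libraries were above all CK666 libraries, and siControl was at 3130, 4465 and 4225. Cdsn, an adhesion protein of cornified epithelium, had its rise weakened from 5.08 to 1.76 (difference -3.32, SE 0.46, adjusted p = 7.77e-11).

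Angpt1, the ligand of the Tie2 receptor that steadies blood vessels, was among the weakened falls. It went from 3988, 4228 and 4039 to 279, 402 and 462 in untransfected cells and from 3723, 3888 and 4556 to 2194, 1951 and 1444 in knockdown cells, so that the same starting level ended at different points. The effects were -3.42 and -1.12 (difference 2.30, SE 0.35, adjusted p = 3.92e-09), and the knockdown fall was under the fold minimum without siArp4+CK666 replicate 3 (-0.97). Il6ra, the IL-6 receptor, lost its fall (effects -2.29 and 0.24, difference 2.54, SE 0.46, adjusted p = 1.70e-06). Besides Nupr1, the hypoxia- and stress-linked gene Ndrg1 reversed, from 1.43 to -1.64 (difference -3.06, SE 0.45, adjusted p = 8.76e-10). The serotonin receptor gene Htr7 reversed in the other direction, with effects of -1.78 and 1.06 (difference 2.84, SE 0.40, adjusted p = 2.40e-10). Leaving out siArp4+CK666 replicate 2 took the knockdown call from Ndrg1 (adjusted p = 0.0104), and leaving out siArp4 replicate 1 (0.94) or siArp4+CK666 replicate 1 (0.99) took it from Htr7.

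Tmem182, a membrane protein of muscle and fat cells, showed a large gained rise. It was at 448, 413 and 405 in control and 682, 819 and 784 in CK666, an effect of 0.85 under the fold minimum, and rose from 16.4, 24.3 and 26.7 to 451, 449 and 380.3 in knockdown cells. The difference was 3.42 (SE 0.26, adjusted p = 7.02e-37). Gpr176, an orphan receptor linked to the circadian clock, was at 2440, 2442 and 2179 against 1843, 2327 and 2228 in untransfected cells and rose from 232, 163 and 232 to 1435, 1419 and 1234 after knockdown (difference 2.84, SE 0.19, adjusted p = 1.51e-46). In both genes CK666 brought the knockdown cells from a low level toward that of untransfected cells. Their siControl means (170 and 667) lay between those of siArp4 and control. Irs2, an adaptor of the insulin receptor, went from -0.91 to 1.57 (difference 2.48, SE 0.35, adjusted p = 2.42e-10), and the untransfected fall was called without CK666 replicate 2 (-1.04) or 3 (-1.01). Gpnmb, a glycoprotein of lysosomes and melanosomes, went from -0.12 to 1.65 (difference 1.77, SE 0.22, adjusted p = 3.65e-13).

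**Figure D5:**
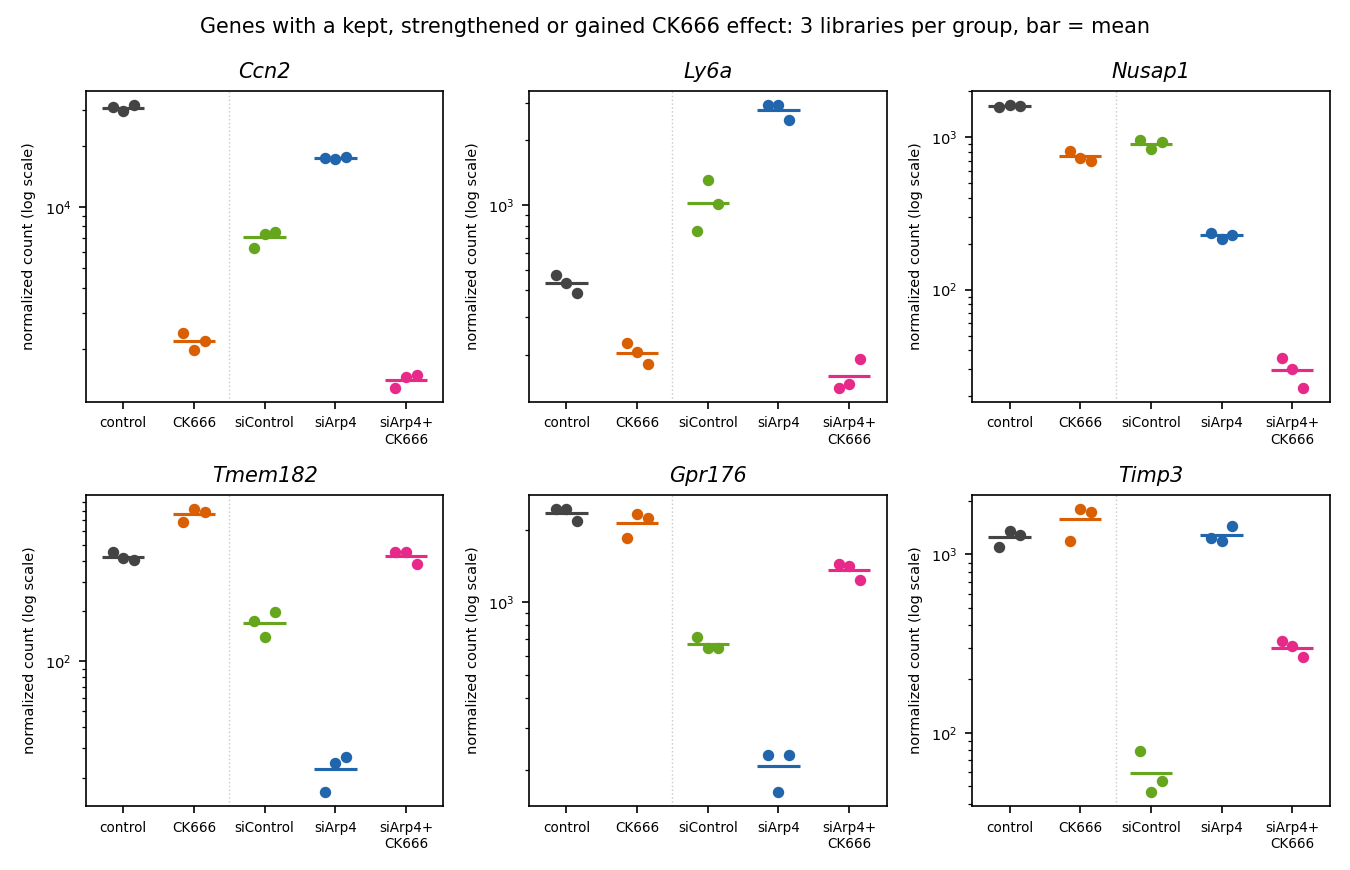
Normalized counts per library (log axis) of Ccn2 (kept), Ly6a and Nusap1 (strengthened), and Tmem182, Gpr176 and Timp3 (gained) in control, CK666, siControl, siArp4 and siArp4+CK666, with 1 point per library and bars at the group means. Tmem182 rises from at most 26.7 to at least 380.3 with CK666 in knockdown cells, and Ly6a falls from at least 2483 to at most 192.

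Txnip, a glucose-responsive inhibitor of thioredoxin, fell steeply in both settings. It went from 2459, 2360 and 2335 to 112, 122 and 135 and from 4586, 3989 and 3810 to 405, 469 and 578. The effects of -4.28 and -3.09 differed by 1.18 (SE 0.50, adjusted p = 0.106). In a fit of only the 12 libraries the difference was called (1.19, adjusted p = 6.09e-07), where the siControl libraries, which ran from 4974 to 21389 for this gene, no longer entered its spread, and also with the replicate block within each experiment (1.18, adjusted p = 3.32e-04).

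Starting levels were set beside the classes for all their members. For 33 of the 133 lost rises (24.8%) the mean of the siArp4 libraries was at or above the mean of the CK666 libraries, and this was so for 4 of the 86 kept rises (4.65%). In siControl, without Arp4 siRNA, the counts were 20 (15.04%) and 5 (5.81%). Among falls, the siArp4 mean was at or below the CK666 mean for 39 of 133 lost responses (29.3%) and 106 of 306 kept ones (34.6%), and the siControl mean for 16 (12.03%) and 67 (21.9%). The classes were defined partly on the siArp4 libraries themselves, so these shares are descriptions, and the part of the starting level in any lost response was not tested.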

How the data were processed

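RNA-seq was made from mouse MSC, 3 libraries in each of 6 groups, and groups and replicate numbers were read from the titles of the samples. Per the labels and methods, the authors quantified unstranded paired reads with Salmon 1.2.1 against GENCODE vM25 (GRCm38) and deposited estimated counts per gene, unscaled. The step from transcripts to genes is not given in the sources used here. Estimated counts were rounded, which shifted a library total by at most 277 counts.

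DESeq2 1.42.0 in R 4.3.3 was fitted to all 18 libraries with 6 groups as the only term, so that every group shares 1 estimate of spread, and the contrast (siArp4+CK666 minus siArp4) minus (CK666 minus control) was tested two-sided by its Wald test with Benjamini-Hochberg adjustment over all genes. A call needed an adjusted p below 0.01 and an absolute log2 value over 1. Fold changes were not shrunken, and 95% intervals are 1.96 SE. Normalized counts are counts divided by DESeq2 size factors. Symbols were matched for 54094 of 54347 gene identifiers, and promoters came from RefSeq (GRCm38.p6). Alternatives were edgeR 4.0.16, TMM scaling, a filter (10 counts in 3 libraries), the 12 libraries alone, each experiment alone, no fold minimum, a test against a log2 value of 1, replicate blocks and leaving out each library. Both tools were tested on simulated data.

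The members, the 38 gene lists and the tests were chosen with earlier results of these data known. Genes were named by a rule: Actl6a, the 3 genes per response class and direction with the largest difference (for kept genes, the largest smaller effect) at a mean of at least 100, and from each list the 3 largest called differences and 2 kept members at a mean of at least 20. Other list members are examples chosen after their values were seen. Deviations of control and CK666 libraries with the same number correlated at 0.174, 0.122 and 0.118, and those of siArp4 and siArp4+CK666 at -0.146, -0.0475 and -0.462. Whether the numbers mark paired libraries was not tested, and the main fit held no term for them. Replicates of a group were distinct libraries (chi-square per degree of freedom at least 6.47). The siRNA sequences, the cytochalasin D comparison and some genes that the rule names are not reported here, and those genes stay in the counts of lists and calls.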

Additional observations from a re-analysis of the deposited data

Results flagged for a closer look

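Each gene below was flagged because its CK666 effect differed between untransfected and Arp4-knockdown cells by a test of the difference itself (DESeq2 Wald contrast over all 18 libraries, absolute log2 difference over 1, adjusted p below 0.01). No group was large enough to be tested for an outlying library. Values are log2 differences, knockdown minus untransfected, for the 87 named genes that passed, against 597 of 13511 genes (4.42%) in all, and transfection, experiment and Arp4 loss cannot be told apart in any of them.

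Responses lost after knockdown were the rises of Lpar4 (-4.33), Cth (-4.27), Adhfe1 (-3.51), Gadd45a (-3.40), Ppp1r15a (-3.31), Nqo1 (-2.05), Slc1a4 (-1.92), Hspa5 (-1.63), Got1 (-1.61), Ctsk (-1.49), Mmp13 (-1.48), Ddit4 (-1.32) and Wars (-1.17). The falls lost were those of Bnip3 (1.0005), Insig1 (1.10), Chaf1b (1.2015), Mcm4 (1.23), Fosl2 (1.31), Elovl6 (1.49), Ccne1 (1.58), Filip1l (1.70), Synm (1.84), Sfrp2 (2.13), Il6ra (2.54), Abcd2 (2.84) and Lgr5 (3.87). Weakened responses were the rises of Cdsn (-3.32), Ddit3 (-2.70), Trib3 (-1.99), Mmp11 (-1.64), Mt2 (-1.51), Chac1 (-1.39), Slc3a2 (-1.27), Gpt2 (-1.06) and Hmox1 (-1.04). The falls weakened were those of Ccne2 (1.5030), Il1rl1 (1.94), Mcf2l (2.12), Thbs1 (2.18) and Angpt1 (2.30). Reversed responses were the rises that became falls of Nupr1 (-3.17), Ndrg1 (-3.06) and Tmtc2 (-2.44). The falls that became rises were those of Htr7 (2.84). Strengthened responses were the rises of Lrrc39 (1.91) and Trem2 (2.13). The falls strengthened were those of Ly6a (-3.05), Ccl9 (-2.46), Glt8d2 (-1.89), Nusap1 (-1.84), Plau (-1.59) and Ccna2 (-1.18). Gained responses were the rises of F3 (1.05), Lpl (1.17), Atf5 (1.22), Inhbb (1.27), Id2 (1.35), Gpnmb (1.77), Irs2 (2.48), Gpr176 (2.84) and Tmem182 (3.42). The falls gained were those of Dcn (-4.32), Cenpf (-2.45), Timp3 (-2.44), Fbln5 (-2.23), Tagln (-2.21), Il1r1 (-2.12), Lgr6 (-2.12), Adamts1 (-1.96), Inhba (-1.89), Ube2c (-1.68), Ndc80 (-1.27), Actg2 (-1.17), Postn (-1.17), Vim (-1.06) and Acta2 (-1.01). Genes with a called difference and no called effect in either setting were Fjx1 (-1.38), Arntl (-1.36), Bbc3 (-1.29), Igfbp4 (-1.19), Pycr1 (-1.18), Etv5 (-1.11), Klf4 (-1.08) and Myc (-1.03), all lower, and G6pdx (1.09), Tef (1.22) and Cxcl12 (1.36), all higher.

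Of these 87 calls, 72 held in all 12 fits that left out 1 library, and 15 did not. The values in the fits that lost the call are given in parentheses. Cenpf lost its call without control replicate 1, CK666 replicate 2, siArp4 replicate 3 or siArp4+CK666 replicate 3 (-2.36 to -1.66). Mt2 lost its call in every such fit but those without CK666 replicates 2 or 3 or siArp4+CK666 replicate 3 (-1.59 to -1.24). G6pdx lost its call without CK666 replicate 1 (0.99). Bbc3 lost its call in every such fit but those without CK666 replicate 2 or siArp4+CK666 replicate 3 (-1.37 to -1.08). Myc lost its call without control replicate 2, CK666 replicate 1 or siArp4+CK666 replicate 1 (-0.9960 to -0.91). Bnip3 lost its call without control replicate 1, CK666 replicates 2 or 3, siArp4 replicate 1 or siArp4+CK666 replicates 2 or 3 (0.95 to 0.99). Postn lost its call without control replicates 1, 2 or 3, CK666 replicates 2 or 3, siArp4 replicates 1 or 3 or siArp4+CK666 replicate 3 (-1.20 to -1.03). Filip1l lost its call without control replicates 1, 2 or 3, CK666 replicate 3, siArp4 replicates 1 or 2 or siArp4+CK666 replicates 1 or 2 (1.53 to 1.74). F3 lost its call without CK666 replicate 2, siArp4 replicate 1 or siArp4+CK666 replicate 3 (0.96 to 0.9993). Vim lost its call without CK666 replicate 1, siArp4 replicates 1 or 2 or siArp4+CK666 replicate 1 (-1.03 to -0.92). Klf4 lost its call without siArp4+CK666 replicate 3 (-0.9986). Gpt2 lost its call without siArp4 replicates 1 or 3 or siArp4+CK666 replicate 3 (-0.9956 to -0.98). Slc3a2 lost its call without control replicate 3, CK666 replicate 1, siArp4 replicates 1 or 2 or siArp4+CK666 replicate 1 (-1.26 to -1.05). Hmox1 lost its call without CK666 replicate 1 or siArp4+CK666 replicate 1 (-0.97 to -0.90). Acta2 lost its call without control replicate 2, CK666 replicate 1, siArp4 replicate 1 or siArp4+CK666 replicates 1 or 2 (-0.99 to -0.86).

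Of the 76 flagged genes with a response class, 50 were in the same class under all 19 alternatives with the same fold minimum and null value, and 26 changed class in at least 1. edgeR did not call the differences of Mcf2l, Trem2, Cenpf, Ppp1r15a, Mt2, Bbc3, Bnip3, Postn, Filip1l, Vim, Il1rl1 and Slc3a2. The knockdown fall of Tmtc2 lost its call with edgeR (adjusted p = 0.0122), with each experiment fitted alone (0.0184) and without siArp4 replicate 3 (0.0192), and its untransfected rise did without control replicate 1 (0.0135). For Trem2 the difference had an adjusted p of 0.0113 with edgeR, and its untransfected rise lost its call there and without control replicates 2 or 3 or CK666 replicates 1 or 3 (at the lowest 0.94, adjusted p = 0.0405). The untransfected fall of Cenpf was itself called with the replicate number as a block within each experiment (-1.22, adjusted p = 0.0043), with each experiment fitted alone (-1.13, adjusted p = 1.57e-05) and without CK666 replicate 2 or siArp4 replicate 3, so that it was strengthened or kept, and not gained, in those fits. An untransfected or knockdown call also changed without 1 library, and the class with it, for Angpt1, Htr7, Ly6a, Glt8d2, Irs2, Ndrg1, Actg2, Atf5, Ndc80 and Bbc3.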

How the results depend on the processing

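Every other setting kept the direction of all 87 called differences of named genes. With edgeR's quasi-likelihood test the difference was called for 384 genes in place of 597 (158 higher and 226 lower, 381 of them shared), and weakened, reversed and gained responses numbered 14, 9 and 82. edgeR kept 75 of the 87 named calls, TMM size factors kept 86, and the filter on low counts, the fit of the 12 libraries and fitting each experiment alone kept 87, while the last left 8 reversed responses. With no fold minimum the 3 contrasts gave 1056 (difference), 3148 (untransfected) and 2030 (knockdown) calls, and 530 responses were lost, 91 weakened, 77 reversed, 931 kept, 72 strengthened, 225 gained and 2024 undecided. Tested against a log2 value of 1, the contrasts gave 58, 256 and 192 calls, with 34 lost, 0 weakened, 0 reversed, 62 kept, 0 strengthened, 13 gained and 277 undecided. The smaller counts follow from the stricter null value.

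Leaving out each replicate in turn moved the called differences between 469 and 651, the untransfected calls between 1211 and 1446 and the knockdown calls between 799 and 957. Lost responses ranged from 211 to 305, weakened from 16 to 23, reversed from 10 to 16, kept from 355 to 395, strengthened from 18 to 24, gained from 98 to 146 and undecided from 944 to 1074. With the replicate number as a block within each experiment 604 differences were called (285 higher and 319 lower), and with 1 block across both experiments 548 (242 and 306). The block within experiments took the call from Synm and Acta2, the block across from Mt2, and no other named call of a difference changed to uncalled under either. In simulated data with known changes, DESeq2 recovered 62% of differences of 1.5 and 94% of differences of 2 on the log2 scale, and edgeR 44% and 86%. Among unchanged genes DESeq2 called 17 and edgeR 2. Smaller differences can thus be missed at this depth and number of libraries. Genes near the count floor, such as Dcn in untransfected cells, are limited by counting. Another scaling (TMM) moved the median difference of all genes from -0.03 to -0.06.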

Other observations

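Counts of calls follow for further lists and for some described above. Myc and ribosome biogenesis genes (29 tested) had no called CK666 effect in either setting, with medians of 0.13 and 0.11, although the list lay 1.09 lower (median log2) in siControl than in control. Nuclear-encoded subunits of oxidative phosphorylation (26 tested) had no call, with medians of 0.14 and -0.03. By DESeq2 8 and 9 members of the first list had effects at an unadjusted p below 0.05 in untransfected and knockdown cells, and 2 and 0 of the second, with 2 for its difference. No call was made in these by edgeR. Among the smaller effects were those of Myc itself, the growth-promoting transcription factor, at 0.67 and -0.37 (log2). Interferon-stimulated and antigen presentation genes (32 tested) had 1 rise in untransfected cells and 3 falls after knockdown, while the list stood 2.25 higher (median log2) in siControl than in control. Lysosome and autophagy genes had 4 rises of 30 tested in untransfected cells and 2 after knockdown, and the GTPase gene Rragd, which links amino acids to mTORC1, kept its rise (1.94 and 1.65). Integrins and focal adhesion genes (24 tested), lamins and nuclear envelope genes (16 tested), heat shock chaperones (20 tested) and complement genes (6 tested) had no called difference by DESeq2 or edgeR, while 8, 4, 3 and 1 of them had an unadjusted p below 0.05. Osteoblast regulators and matrix genes (14 tested) had 1 rise and 2 falls in untransfected cells and 3 falls after knockdown. Of 22 p53 target genes 3 rose in untransfected cells and 1 after knockdown.

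Glycolytic, glucose-responsive and hypoxia-inducible genes fell in 6 of 26 tested in untransfected cells (median -0.75) and in 4 after knockdown (median -0.41). Bnip3, a mitophagy receptor induced by hypoxia, went from 2713, 2527 and 2528 to 1193, 1001 and 1030 normalized counts in untransfected cells and stood at 14814, 15691 and 15547 in siArp4 against 12330, 13011 and 12892 in siArp4+CK666. Its knockdown libraries lay above all untransfected ones, and its difference of 1.0005 sat at the fold minimum. Immediate early genes had 6 falls and 1 rise of 28 tested in untransfected cells and 3 falls and 2 rises after knockdown. Fosl2, an AP-1 subunit, fell from 2818, 3045 and 2885 to 787, 1124 and 1039 and was at 4315, 4659 and 5138 against 4373, 3741 and 3688 in knockdown cells (difference 1.31, SE 0.20, DESeq2 adjusted p = 7.11e-09).

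Among 18 circadian clock genes 2 moved in opposite directions across the settings without passing the fold minimum in either. Arntl (BMAL1), the activator of the clock, went from 144, 148 and 126 to 225, 245 and 226 in untransfected cells and from 497, 467 and 503 to 384, 292 and 275 in knockdown cells (difference -1.36, SE 0.23, adjusted p = 1.19e-07). Tef, a clock output factor, went from 1764, 1945 and 1744 to 1007, 1319 and 1213 and from 1265, 1205 and 1298 to 2070, 1890 and 1755 (difference 1.22, SE 0.18, adjusted p = 3.00e-09). In the insulin-like growth factor list (13 tested) Igfbp4, a binding protein that restrains IGF, had effects of 0.51 and -0.68 and a difference of -1.19 (SE 0.25, adjusted p = 6.97e-05). The time of day at harvest is not given in the sources used here.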
